A study of Caenorhabditis elegans with 80 samples.

Results

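Genes that Caenorhabditis elegans needs to shed and rebuild its cuticle, and that encode neither proteases nor collagens, were followed in whole L4 larvae exposed to acrylamide, cadmium or mercury: mlt-7, mlt-8, mlt-9, mlt-10, mlt-11, noah-1, noah-2, fbn-1, lrp-1 and bli-5. They were taken by symbol from the probe annotation of the array, which gave 10 genes of 17118 and 19 probe sets of 22548. In unexposed larvae 8 of the 10 were lower after 8 h than at 0 h, against 34.1% of all genes. The falls ran from 2.58-fold for lrp-1 up to 8.99-fold for noah-1. For all of these 8 but mlt-10 the 9 unexposed arrays at 8 h all lay below every array at 0 h. Of the exposures, high mercury gave the most calls, 7 lower genes at 4 h, where 13.8% of all genes were lower. Low mercury at 8 h held mlt-11, noah-1 and noah-2 above the control of the same hour, where 0.775% of all genes were higher. Leaving out 1 array could take all 3 of these calls away.

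A nematode moults at the end of each larval stage. The epidermis first secretes a temporary precuticle and then the new collagen cuticle beneath the old one, which is loosened, cut by proteases and cast off. Genes for this work are switched on and off once in each larval stage, under regulators that include the nuclear receptor NHR-23, so that in a synchronised culture their transcript levels follow the stage of the moulting cycle. NOAH-1 and NOAH-2 are zona pellucida-domain proteins of the precuticle, and FBN-1 is a fibrillin-like matrix protein that anchors the epidermis to it. MLT-11 and BLI-5 carry Kunitz-type protease inhibitor domains. LRP-1 is the nematode megalin, an endocytic receptor of the epidermal surface. MLT-7 is a haem peroxidase that works with the dual oxidase BLI-3 in cross-linking the cuticle. Loss of mlt-8, mlt-9 or mlt-10 leaves larvae unable to complete a moult, and the promoter of mlt-10 is widely used as a reporter of the moulting cycle.

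Synchronised worms, obtained by bleaching gravid adults and hatching the embryos without food, were grown in CeHR, a liquid medium without bacteria, in shaken flasks. At mid L4, the stage before adulthood, the chemical was added to the medium. The low, mid and high dose of acrylamide were 100, 500 and 1000 mg/L, those of cadmium 5, 20 and 50 mg/L and those of mercury 5, 10 and 25 mg/L. Each chemical had its own unexposed control at 4 h and at 8 h and a control at 0 h. The labels speak of 1 flask for the latter, so its 3 arrays may share a culture. Whole animals of both exposed and control groups were used, the strain was not given in the labels, and the groups held 3 arrays each except for 2 at mid cadmium, 4 h, making 80 arrays in 27 groups. No label said that replicates came from separate cultures, and each p value therefore rests on array-to-array spread that may be technical.

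Values are MAS5 signals, a brightness per probe set on a linear scale, with every array scaled here to a median of 202.9. Changes are differences of the mean of log2(signal + 51), so a fold is on that scale and understates the change of a dim gene. A gene is called at a Benjamini-Hochberg adjusted p under 0.05 in limma, adjusted over all probe sets tested. Deposited medians ran from 80.32, on replicate 1 of the acrylamide control at 0 h, with the next at 152.7, to 282.2. Correlation between arrays of a group ran from 0.831 to 0.984. Of the 19 probe sets 18 passed the filter on low signal, and the 1 that did not, a mlt-11 probe set, reached a signal of at most 51 on any array. Each gene is described by 1 representative probe set, the brightest of those whose name carries no mark of possible cross-hybridization. The representative probe sets of mlt-9 and noah-2 carry that mark because the genes had no other. Further tested probe sets were compared where the representative was called, for each dose against its control and for the averaged controls between times. They had the same sign in 42 of 42 cases and were themselves called in 35. Of these cases 14 were of mlt-11, and mlt-8, noah-2 and bli-5 gave 0. All 8 epidermis markers on the list used here, among them dpy-7, dpy-13 and elt-3, were above the filter signal on 74 or more of the 80 arrays.

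In the controls the question is how far the genes move on their own while the exposure runs. From 4 h to 8 h, averaged over the controls of the 3 series, 9 of the 10 genes were lower and 1, mlt-7, was higher. Of all 13545 genes tested in that comparison, 15.7% were lower and 11.6% higher. From 0 h to 8 h 8 genes were lower, against 34.1% of all genes, and the median change of the 10 was -1.89 against -0.15 over all genes. From 0 h to 4 h 3 were lower and 1 higher, against 23.1% and 13% of all genes, and 2 of these 4 calls were left with the scaling as deposited or with quantile normalization.

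Among the matrix genes, all 3 fell between 4 h and 8 h, and noah-2 and fbn-1 also between 0 h and 4 h. The signal of noah-1 (probe set 174240_at) at 0 h ran from 5462 to 13630 with a median of 9934 over 9 unexposed arrays, at 4 h from 3569 to 9846 with a median of 6905, and at 8 h from 224 to 2126 with a median of 1185. All 9 arrays at 8 h lay below the lowest at 4 h. The fall between 4 h and 8 h was 5.89-fold (log2 change -2.56 ± 0.32 SE, adjusted p = 4.1e-09, limma). The signal of noah-2 (181136_s_at) ran from 4677 to 8018 at 0 h, from 2180 to 5473 at 4 h and from 314 to 1261 at 8 h, again with no overlap between 4 h and 8 h, and it fell 4.94-fold over the second interval (adjusted p = 3.3e-10). Its fall of 0.70 on the log2 scale over the first interval (adjusted p = 0.03) was lost in 9 of 25 alternatives, with adjusted p from 0.0006 to 0.24. For fbn-1 (181745_at) the range was 470 to 1001 at 0 h, 215 to 473 at 4 h and 55.1 to 229 at 8 h. The gene fbn-1 fell by 0.89 and by 0.98 on the log2 scale in the 2 intervals (adjusted p = 2.9e-06 and 4.5e-07). For noah-1 the change over the first interval, -0.61, had an adjusted p of 0.13, and with the replicate number as a block it was called (adjusted p = 0.012, range over 25 alternatives 0.012 to 0.49).

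The Kunitz-domain genes differed from each other. The signal of mlt-11 (194086_at) was 1553 to 2416 at 0 h, 585 to 1688 at 4 h and 13.8 to 312 at 8 h. It fell by 0.75 on the log2 scale over the first interval (adjusted p = 0.027, lost in 7 of 25 alternatives, with values up to 0.22) and 5.27-fold between 4 h and 8 h (log2 change -2.40 ± 0.27 SE, adjusted p = 3.6e-10) with no overlap of arrays. The lowest value, 13.8, was replicate 2 of the cadmium control, whose fellow replicates stood at 191 and 230. For bli-5 (177581_at) the medians at 0, 4 and 8 h were 372, 571 and 340, and the ranges overlapped at all times. It rose by 0.50 over the first interval (adjusted p = 0.028, lost in 5 of 25 alternatives, with values up to 0.094). Over the second it fell by 0.79 on the log2 scale (adjusted p = 0.00079). Its level at 8 h was thus -0.28 ± 0.18 (SE) from that at 0 h, which did not pass the test (adjusted p = 0.20).

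The receptor gene lrp-1 (171791_at) had medians of 1928, 1554 and 739 at 0, 4 and 8 h. Its arrays at 8 h, between 490 and 980, all lay below the lowest at 0 h, 1177. The change from 4 h to 8 h was -0.95 ± 0.17 (SE, adjusted p = 1.4e-05), and its further probe set changed by -1.09. Over the first interval it changed by -0.41 (adjusted p = 0.053), which the replicate block turned into a call (adjusted p = 0.012, range over 25 alternatives 0.012 to 0.62).

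Of the 3 genes named only for the moulting defect, mlt-8 (182327_at) ran from 2730 to 4632 at 4 h and from 396 to 1341 at 8 h. The ranges did not overlap, and the fall was 4.22-fold (adjusted p = 6.5e-09). For mlt-10 (181793_at) the arrays lay between 2007 and 3778 at 4 h and between 236 and 1568 at 8 h, a fall of 3.56-fold (adjusted p = 1.9e-08). For mlt-9 (194238_x_at) they lay between 905 and 2742 and between 141 and 935, and 8 of 9 at 8 h were below all at 4 h. It fell 2.98-fold (adjusted p = 5.4e-07).

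The peroxidase gene mlt-7 (172950_at) was dim and moved the other way. Its range was 101 to 258 at 0 h, 49.2 to 216 at 4 h and 138 to 307 at 8 h, and the ranges overlapped. The rise between 4 h and 8 h was 1.56-fold (log2 change 0.64 ± 0.19 SE, adjusted p = 0.0074). A brighter mlt-7 probe set that carries the cross-hybridization mark changed by 0.28 in that interval (adjusted p = 0.33) and by 0.53 from 0 h to 8 h (adjusted p = 0.025).

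**Figure D1:**
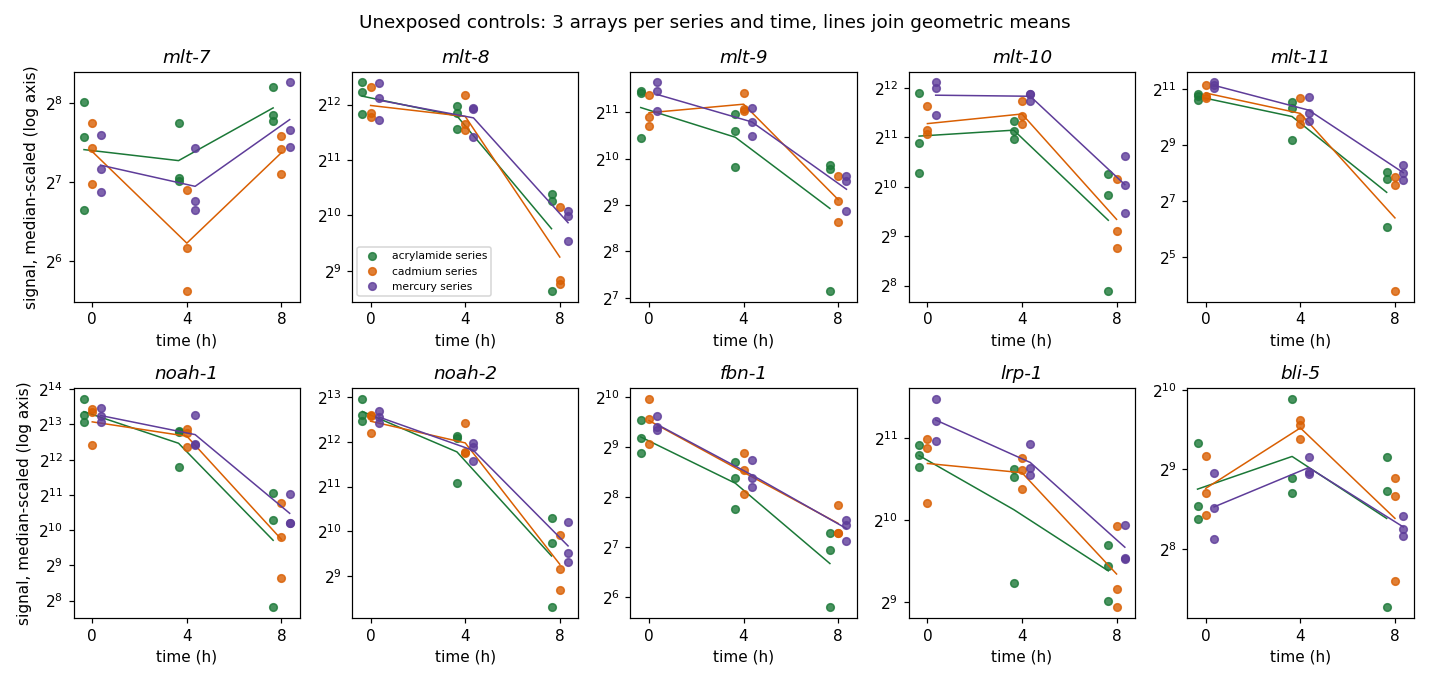
Median-scaled signal (log axis) of the 10 genes on unexposed arrays at 0, 4 and 8 h, 1 point per array, coloured by series, with lines joining the geometric means of 3 arrays. In 9 panels the line ends lower at 8 h than at 4 h, with noah-1, noah-2, mlt-11, mlt-8 and mlt-10 not overlapping between these times, and mlt-7 ends higher.

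The fall appeared in each series taken alone, with unequal certainty. From 0 h to 8 h the same 8 genes were called lower in the acrylamide, cadmium and mercury controls, for noah-1 with log2 changes of -3.53, -3.25 and -2.73, where 23.4%, 9% and 28.6% of all genes were lower. From 4 h to 8 h 9 were lower in the cadmium controls (5.14% of all genes) and 9 in the mercury controls (9.43%). In the acrylamide controls limma called 0 of 10 (0.0879% of all genes were lower), with 7 at an unadjusted p under 0.05 and a smallest adjusted p of 0.058, although the changes of noah-1 and mlt-11, -2.64 and -2.33, lay between those of the mercury and cadmium controls. From 0 h to 4 h limma called 0 in acrylamide (1 at an unadjusted p under 0.05; 3.98% of all genes were lower), 1 lower in cadmium, fbn-1 (-0.94, adjusted p = 0.017; 1.87%), and 3 lower in mercury, mlt-11, noah-2 and fbn-1 (-0.86, -0.74 and -0.91; 7.71%).

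**Figure D2:**
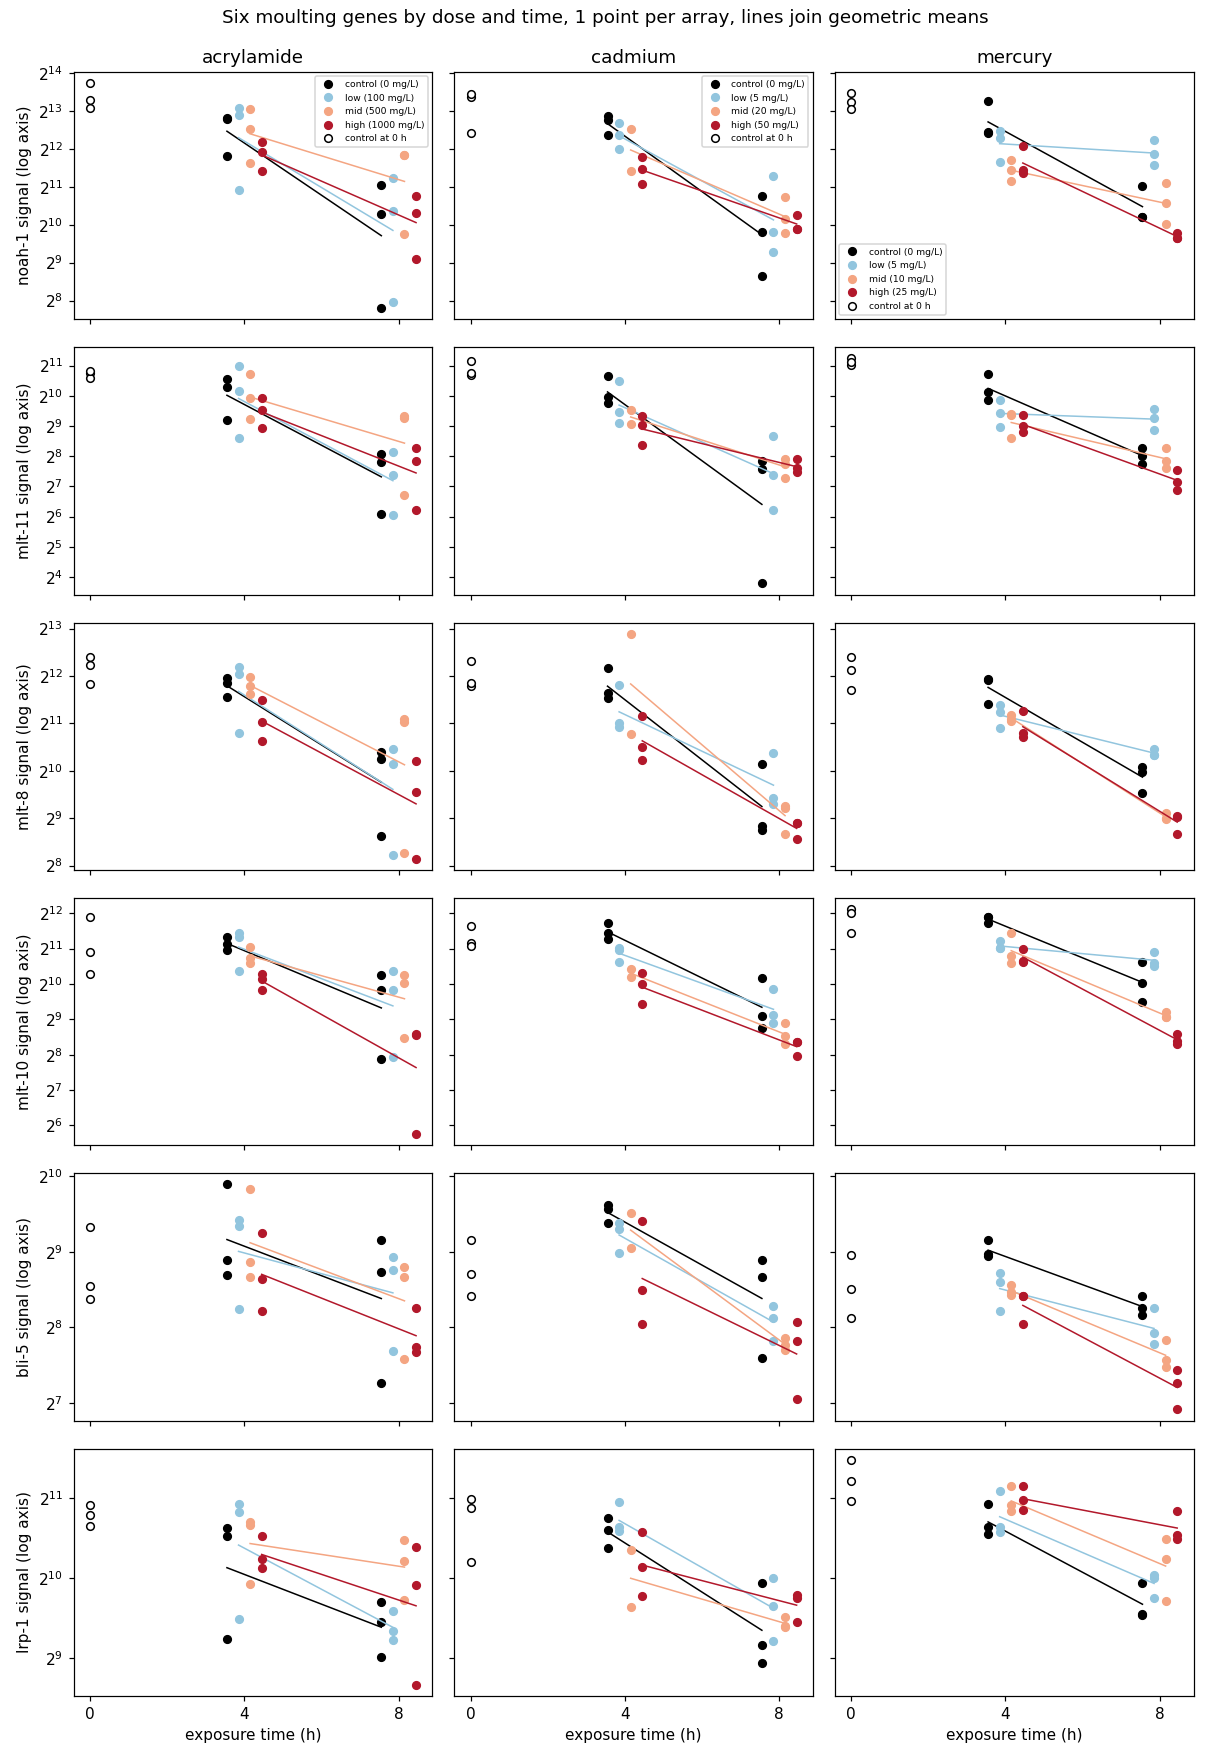
Median-scaled signal (log axis) against exposure time for noah-1, mlt-11, mlt-8, mlt-10, bli-5 and lrp-1 in rows and the 3 chemicals in columns, 1 point per array (small shifts along the time axis separate the doses), with lines joining geometric means. In the mercury column the low dose lies below the control at 4 h and above it at 8 h for noah-1, mlt-11, mlt-8 and mlt-10, and at 8 h lrp-1 alone of the 6 is highest at the high dose.

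Mercury at the high dose (25 mg/L) lowered 7 of the 10 genes at 4 h, against 13.8% of all genes. The 7 were both noah genes, fbn-1, mlt-11, bli-5, mlt-8 and mlt-10. In replicates 1, 2 and 3 the signal of noah-1 was 9846, 5487 and 5583 in the control and 2796, 2641 and 4284 at the high dose. All 3 exposed arrays were below all 3 controls. The log2 change was -1.07 ± 0.27 (SE, n = 3 against 3, adjusted p = 0.004). Leaving out replicate 1 of the control, the highest array, gave -0.80 with an adjusted p of 0.053, and over 13 alternatives the adjusted p ran from 0.00074 to 0.053.

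For mlt-11 the signals were 1688, 938 and 1130 in the control and 511, 445 and 658 at the high dose. These groups did not overlap either, and the log2 change was -1.12 ± 0.23 (SE, adjusted p = 0.00072). For mlt-10 they were 3778, 3764 and 3404 against 1583, 1614 and 2022, a change of -1.05 ± 0.22 (SE, adjusted p = 0.0006). The controls of mlt-10 were close together and every exposed array lay well below them. The remaining called genes, noah-2, fbn-1, mlt-8 and bli-5, changed by -0.97, -0.90, -0.81 and -0.65, and their exposed arrays were all below the controls. The genes not called were mlt-9 (-0.45, adjusted p = 0.14), lrp-1 (0.28, adjusted p = 0.31) and mlt-7 (0.48, adjusted p = 0.31).

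At the mid dose (10 mg/L) and 4 h 6 genes were lower, all of the 7 but bli-5, against 9.66% of all genes. The largest of these changes was that of noah-1, whose arrays stood at 3353, 2270 and 2795. The change of -1.26 ± 0.27 (SE) was 2.39-fold down (adjusted p = 0.0011). The other 5 changed by -0.64 for mlt-8 up to -1.06 for mlt-11 in size. Over 13 alternatives the limma call of mlt-8 was lost in 4 (adjusted p up to 0.089) and that of fbn-1 in 2 (up to 0.079). The call of mlt-10 was lost in 1 (adjusted p up to 0.051), and that of mlt-11 in 0. The value for bli-5 was -0.48 with an adjusted p of 0.056, and with the replicate number as a block it was called (adjusted p = 0.048). For noah-1, noah-2 and mlt-11 the mid and the high dose gave similar values at this time, -1.26 and -1.07, -0.97 and -0.97, and -1.06 and -1.12, which differ by less than the standard errors of 0.23 to 0.27.

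At the low dose (5 mg/L) and 4 h limma called 0 of the 10 against 1.68% of all genes lower, with 6 at an unadjusted p under 0.05. The 8 members other than lrp-1 and mlt-7 had negative values, from -0.19 for fbn-1 to -0.78 for mlt-11. Same-numbered replicates deviated together in this comparison, and with the replicate number as a block 2 genes were called lower, mlt-10 (-0.75, adjusted p = 0.032) and mlt-11 (-0.78, adjusted p = 0.012). Within replicates 1, 2 and 3 the difference of mlt-11 was -0.83, -0.85 and -0.66.

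At 8 h the low dose stood apart. Here 3 genes were higher than the control, mlt-11, noah-1 and noah-2, against 0.775% of all genes, and 0 were lower. The signals of noah-1 in replicates 1, 2 and 3 were 2068, 1185 and 1181 in the control and 3070, 3716 and 4792 at the low dose. Each exposed array was above each control, and the smallest difference was in replicate 1, whose control was the highest. The log2 change was 1.38 ± 0.27 (SE), or 2.60-fold (adjusted p = 0.0061). For noah-2 the signals were 1180, 726 and 634 against 1453, 1934 and 2464, and the rise was 2.25-fold (1.17 ± 0.23 SE, adjusted p = 0.0061). For mlt-11 they were 312, 215 and 259 against 468, 612 and 752, a rise of 2.10-fold (1.07 ± 0.23 SE, adjusted p = 0.018). Neither pair of groups overlapped.

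These 3 calls rested on the full set of arrays. Without replicate 3 of the control, or without replicate 3 of the low dose, 0 of 10 were called; the changes of noah-1 were then 1.25 and 1.21, and over 13 alternatives its adjusted p ran from 0.00074 to 0.077. With the replicate number as a block the same 3 were called. Of the genes not called at the low dose, mlt-8 (0.48, adjusted p = 0.44) and mlt-9 (0.34, adjusted p = 0.84) had all exposed arrays above the controls, mlt-10 changed by 0.60 (adjusted p = 0.37), and fbn-1, lrp-1, bli-5 and mlt-7 lay between -0.24 and 0.25.

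The low-dose effect at 8 h was set against that at 4 h in a contrast added after the data were seen. The difference was positive and called for 5 genes, noah-1 (1.95 ± 0.38 SE, adjusted p = 0.0027), mlt-11 (1.85 ± 0.33, adjusted p = 0.0012), noah-2 (1.69 ± 0.32, adjusted p = 0.0023), mlt-10 (1.34 ± 0.31, adjusted p = 0.012) and mlt-8 (1.05 ± 0.26, adjusted p = 0.028), against 1.72% of all genes. The call of mlt-8 was lost in 7 of 18 alternatives (adjusted p from 0.01 to 0.12), each of them without 1 array, and that of mlt-10 in 1, without replicate 3 of the control at 8 h (from 0.0014 to 0.064). The same difference was not called for any of the 10 at the mid or the high dose (limma, smallest adjusted p = 0.26 and 0.25), with 3 and 1 at an unadjusted p under 0.05, where 0.025% and 0.417% of all genes were higher.

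At the mid dose and 8 h noah-1, noah-2 and mlt-11 were near the control, with changes of 0.08, 0.12 and -0.08 (adjusted p = 0.88, 0.79 and 0.85). By contrast 3 genes were lower, mlt-8, mlt-10 and bli-5, against 7.79% of all genes. The signals of mlt-8 were 1082, 743 and 1013 in the control and 551, 515 and 505 at the mid dose. The mid-dose arrays of mlt-8 lay close together and below every control, and the change was -0.78 ± 0.19 (SE, adjusted p = 0.0036). The changes of mlt-10 and bli-5 were -0.88 (adjusted p = 0.0045) and -0.53 (adjusted p = 0.031). Without replicate 1 of the control only mlt-8 of these 3 was called.

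The high dose at 8 h gave 6 lower genes and 1 higher, against 14.6% and 17.6% of all genes. The largest fall was that of mlt-10. Its signals were 1568, 1051 and 712 in the control and 334, 314 and 385 at the high dose, with no overlap. The fall was 2.81-fold (log2 change -1.49 ± 0.22 SE, adjusted p = 4.8e-06). For mlt-8 and bli-5 the changes were -0.88 (adjusted p = 0.00058) and -0.86 (adjusted p = 0.00032). The other 3 lower genes moved less, noah-1 by -0.75 (adjusted p = 0.033), mlt-11 by -0.64 (adjusted p = 0.037) and noah-2 by -0.60 (adjusted p = 0.046). Leaving out replicate 1 of the control, or replicate 1 or 2 of the high dose, took these 3 calls away and left 4 genes called; over 13 alternatives the adjusted p of noah-1 ran from 0.01 to 0.22.

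The receptor gene lrp-1 was the member that rose. Its signals at 8 h were 980, 739 and 745 in the control, 861, 1049 and 1026 at the low dose, 841, 1207 and 1436 at the mid dose, and at the high dose they reached 1832, 1435 and 1490. Every high-dose array was above every control. The rise at the high dose was 1.88-fold (log2 change 0.91 ± 0.19 SE, adjusted p = 0.00038) and was called under all 13 alternatives, with changes from 0.81 to 1.04. Its further probe set, which carries the cross-hybridization mark, changed by 0.56 (adjusted p = 0.078). The high-dose level at 8 h was still below the unexposed level at 0 h, where the mercury control arrays stood at 1999, 2362 and 2850.

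Set directly against the low dose at 8 h, in a further contrast added after the data were seen, the high dose was lower for 7 genes and higher for lrp-1, against 13.5% and 15.7% of all genes. The difference was 4.39-fold for noah-1 (log2 change -2.13 ± 0.27 SE, adjusted p = 5e-07), 4.26-fold for mlt-10 (-2.09 ± 0.22, adjusted p = 2.3e-08), 3.42-fold for noah-2 and 3.28-fold for mlt-11. At 4 h the same comparison called fbn-1 alone (-0.71, adjusted p = 0.027), against 8.05% of all genes lower.

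**Figure D3:**
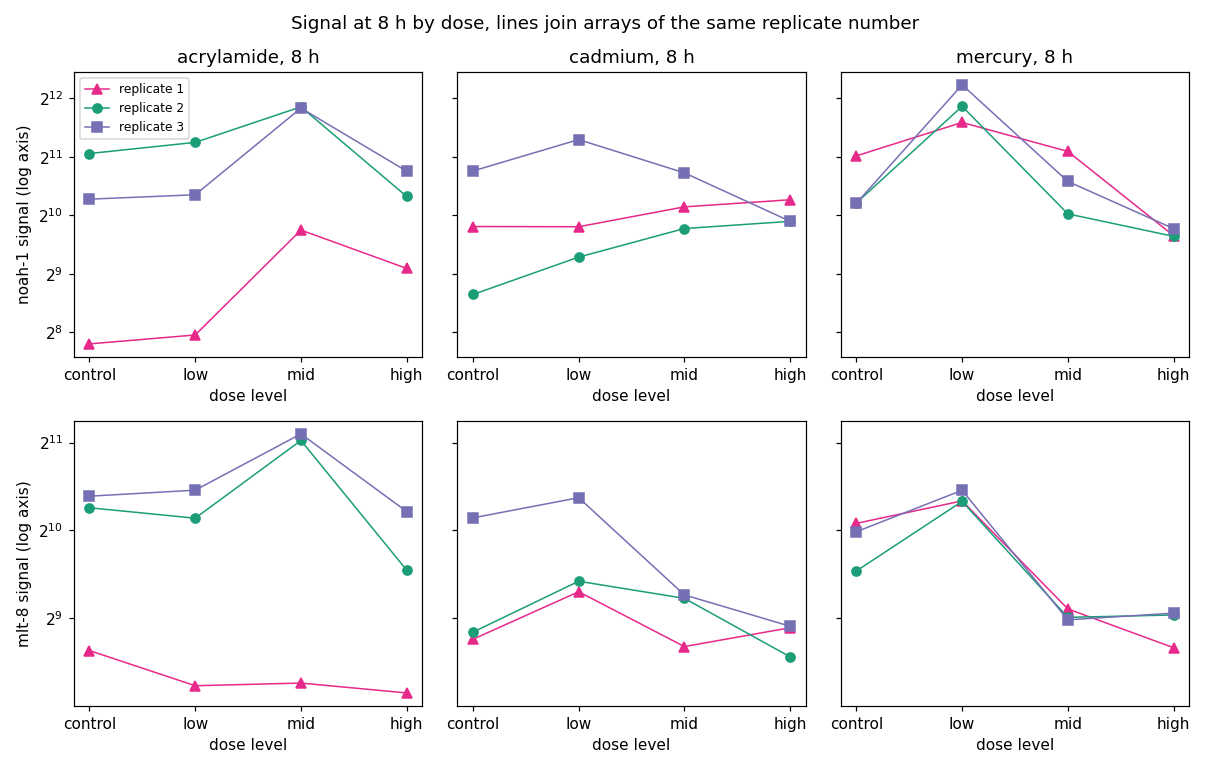
Median-scaled signal (log axis) of noah-1 and mlt-8 at 8 h against dose level, 1 point per array, with lines joining arrays of the same replicate number. In the mercury panels all 3 lines rise from control to the low dose and fall to the high dose, and in the acrylamide panels replicate 1 runs below the other 2 at every dose.

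In the cadmium series the gene called most often was mlt-10. Its further probe set carries the cross-hybridization mark. Over the calls of mlt-10 by dose in all series and between control times, that probe set had the same sign in 9 of 9 cases. It was itself called in 5 of them. At the high dose (50 mg/L) and 4 h 3 genes were lower, mlt-9, mlt-10 and fbn-1, against 4.57% of all genes, and the median change of the 10 was -1.0 against -0.12 over all genes. The signals of mlt-10 were 3397, 2452 and 2754 in the control and 1021, 1264 and 687 at the high dose. The groups did not overlap, and the fall was 2.86-fold (log2 change -1.51 ± 0.30 SE, adjusted p = 0.0015). That call held under 13 of 13 alternatives, with adjusted p from 0.00096 to 0.016. The changes of mlt-9 and fbn-1 were -1.03 (adjusted p = 0.037) and -0.81 (adjusted p = 0.042), and they were lost in 8 and 7 of 13 alternatives, with adjusted p up to 0.23 for both. For noah-1 the signals were 7537, 5267 and 6905 against 3519, 2824 and 2155, with no overlap, yet the change of -1.21 ± 0.44 (SE) had an adjusted p of 0.10. The changes of mlt-8, mlt-11 and noah-2 were -1.13, -1.14 and -0.96 (adjusted p = 0.10, 0.12 and 0.083). For mlt-7 the signals were 49.2, 71.8 and 119 against 152, 217 and 260, all exposed arrays above the controls. The change was 1.01 ± 0.34 (SE, adjusted p = 0.077). Its control signals were all under the filter signal of 131, and the lowest was under the 51 added before log2. Over 13 alternatives the adjusted p ran from 0.024 to 0.35 for noah-1, 0.049 to 0.35 for noah-2 and 0.023 to 0.29 for mlt-7, so that their calls depended on the setting.

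At mid cadmium (20 mg/L) and 4 h, with 2 arrays, mlt-10 was the 1 gene called, at -1.14 ± 0.33 (SE, adjusted p = 0.026), where 10.5% of all genes were lower. Its arrays stood at 1173 and 1361. On the other side of that group, mlt-8 stood at 7596 and 1752 on those arrays, the widest gap between replicates of a member in the cadmium series at that time, and changed by 0.05. Leaving out replicate 1 or 3 of the control, or replicate 1 of the mid dose, took the mlt-10 call away. With 1 of its 2 arrays left out, the lone mid-dose array is assumed to vary like the other groups. Low cadmium (5 mg/L) at 4 h gave 0 calls in limma, with 1 at an unadjusted p under 0.05, against 0.684% of all genes in either direction. Same-numbered arrays deviated together there, and within replicate numbers 8 genes were lower in all 3 pairs and mlt-7 and lrp-1 higher in all 3. For mlt-8 these differences were -0.37, -0.71 and -0.52, and for mlt-10 -1.10, -0.28 and -0.40. The share of all genes with 3 pairs of the same sign was not counted, and members deviate together between replicates. With the replicate number as a block limma called 0. That block is 1 offset per replicate number over all times of the series, so it is not a test within the pairs at 4 h.

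After 8 h of cadmium 1 gene was called, again mlt-10 at the high dose, against 2.85% of all genes lower. Its signals were 548, 433 and 1148 in the control and 251, 326 and 329 at the high dose, which did not overlap, and the change was -1.0 ± 0.30 (SE, adjusted p = 0.042). The call was lost in 9 of 13 alternatives, among them those without replicate 1 or 3 of the control or any replicate of the high dose, and its adjusted p ran from 0.02 to 0.25. At the low and mid doses limma called 0 of 10, with 0 and 1 at an unadjusted p under 0.05, against 0.326% and 2.16% of all genes in either direction. For noah-1 and mlt-11 the values at 8 h were above the control at each dose but not called. At the low, mid and high dose noah-1 changed by 0.37, 0.44 and 0.25 and mlt-11 by 0.50, 0.62 and 0.62, with standard errors of 0.44. The spread was wide in the control, where noah-1 stood at 896, 401 and 1729 and mlt-11 at 191, 13.8 and 230.

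Acrylamide gave 0 calls among the 10 genes at all 6 combinations of dose and time in limma, with 1 at an unadjusted p under 0.05, mlt-10 at the high dose and 8 h. Of all genes, 0.184%, 1.74% and 6.35% were called in either direction at 4 h for the low, mid and high dose, and 0.392%, 2.57% and 9.04% at 8 h. Standard errors were larger than in the mercury series, 0.73 against 0.27 for noah-1 and 0.60 against 0.19 for mlt-8.

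The spread lay with the arrays numbered 1. For noah-1 at 8 h the signals in replicates 1, 2 and 3 were 224, 2126 and 1239 in the control, 248, 2425 and 1305 at the low dose, 859, 3692 and 3638 at the mid dose, and at the high dose they stood at 546, 1280 and 1726. Replicate 1 was the lowest in each of the 4 groups. The same held at 8 h for mlt-8, mlt-9, mlt-10, mlt-11, noah-2, lrp-1 and bli-5, for fbn-1 in 2 of 4 groups and for mlt-7 in 0. Over the 9 members other than mlt-7 the arrays numbered 1 deviated from their group means by -0.43 on average at 4 h and by -0.94 at 8 h in log2, whereas in the cadmium and mercury series the means by replicate number at 4 h and 8 h lay between -0.25 and 0.30. The labels gave no batch for these arrays, and what set them apart was not tested.

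Differences within each replicate number leave that offset out. Between the control and the mid dose (500 mg/L) at 8 h 5 genes were higher in all 3 pairs, mlt-7 was lower in all 3, and mlt-8, mlt-10, fbn-1 and bli-5 were mixed. The differences were 1.73, 0.78 and 1.52 for noah-1, 0.70, 0.88 and 1.39 for noah-2, 0.39, 1.12 and 1.28 for mlt-11, 0.66, 0.74 and 0.72 for lrp-1 and 1.16, 0.05 and 0.46 for mlt-9. At the high dose (1000 mg/L) and 4 h 7 genes were lower in all 3 pairs, mlt-8, mlt-9, mlt-10, mlt-11, noah-1, noah-2 and bli-5, and mlt-7 was higher in all 3. Same-numbered arrays did not all deviate together in that comparison, where the lowest correlation of a pair was 0.09. The share of all genes with 3 pairs of the same sign was not counted, and members deviate together between replicates. Such counts are therefore descriptive. In the fit of all arrays the changes at the mid dose and 8 h were 1.34, 0.99, 0.93, 0.71 and 0.56 for noah-1, noah-2, mlt-11, lrp-1 and mlt-9 (adjusted p = 0.57, 0.65, 0.64, 0.55 and 0.85). With the replicate number as a block 0 were called. That block is 1 offset over all times, while the arrays numbered 1 deviated by 0.14, -0.43 and -0.94 at 0, 4 and 8 h. It is therefore not a test within the pairs at 8 h. With all acrylamide arrays numbered 1 left out, an alternative added after the data were seen, 3 genes were higher at the mid dose, noah-1 (1.15, adjusted p = 0.039), noah-2 (1.14, adjusted p = 0.015) and mlt-11 (1.20, adjusted p = 0.025). Under that alternative mlt-10 was lower at the high dose at 4 h (-1.13, adjusted p = 0.0069) and at 8 h (-1.35, adjusted p = 0.0011), where the fit of all arrays gave -1.03 (adjusted p = 0.41) and -1.39 (adjusted p = 0.16). Over 14 alternatives the adjusted p of these 2 changes of mlt-10 ran from 0.0069 to 0.65 and from 0.0011 to 0.58.

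**Figure D4:**
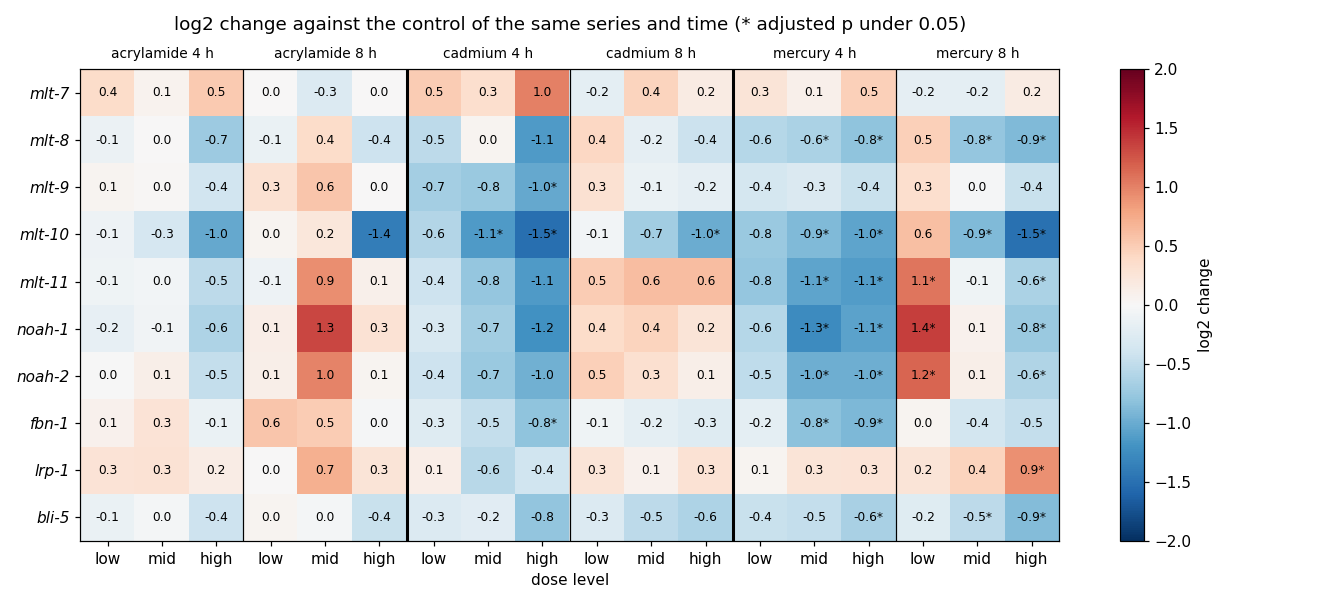
Log2 change of each gene (rows) against the matching control, for each dose, time and chemical (columns), from the fit of all arrays, with an asterisk at an adjusted p under 0.05. Blue cells fill most of the mercury and cadmium columns at 4 h, mlt-10 is blue at the high dose of every chemical and time, and noah-1, noah-2 and mlt-11 are red at low mercury, 8 h.

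Side by side, the high-dose changes of mlt-10 were -1.03, -1.51 and -1.05 at 4 h for acrylamide, cadmium and mercury and -1.39, -1.0 and -1.49 at 8 h. Each chemical was set against its own controls, and doses in mg/L are not matched between chemicals. The differences between chemicals at the high dose were tested in 1 fit of all arrays, and limma called 0 of 10 in each of the 6 comparisons, with 1 gene at an unadjusted p under 0.05 in acrylamide against mercury at 4 h and 0 in the other 5. The smallest adjusted p over the members ran from 0.41 to 1 between these comparisons. Of all genes, 2.19% differed between acrylamide and cadmium at 4 h, 2.95% between acrylamide and mercury and 1.79% between cadmium and mercury, and 2.61%, 3.62% and 3.68% at 8 h.

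Other genes of the moulting pathway were read from lists chosen by name. In the controls from 4 h to 8 h, where 15.7% of all genes were lower, all 10 measured furrow and blister collagens were lower, with a median change of -2.25 against -0.01 over all genes, and examples were bli-1 (-2.82) and dpy-7 (-2.79). Of 12 precuticle and apical matrix genes 8 were lower and 1 higher, among them the leucine-rich repeat gene sym-1 (-2.55) and the lipocalin genes lpr-3 (-2.41) and lpr-1 (-2.23). Among the hedgehog- and patched-related moulting genes 5 of 6 were lower, with qua-1 at -1.96. The protease list held 8 genes, among them the non-peptidase homologue acn-1. Of these 8 genes 5 were lower, with acn-1 at -1.70 and the astacin metalloprotease nas-37 at -1.25. Of 10 transcription factors and timers 7 were lower, with bed-3 at -1.48 and the period homologue lin-42 at -1.16. Among the trafficking partners of lrp-1 5 of 9 were lower by smaller amounts, mlt-3 by -0.66 and nekl-3 by -0.64. Of 3 genes of the dual oxidase system, to which mlt-7 belongs, limma called 0, and their changes lay between -0.27 and 0.21.

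Over the first 4 h 13% of all genes were higher and 23.1% lower. Of the 8 genes on the protease list 5 were higher and 0 lower, led by nas-7 (1.63) and nas-36 (0.83). Of 10 transcription factors and timers 8 were lower, led by myrf-1 (-1.10), and 1, bed-3, was higher (0.81). Of 10 collagens 4 were lower and 0 higher.

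At low mercury and 8 h, where 0.775% of all genes were higher, 4 of 10 furrow and blister collagens were higher, dpy-2 (1.70), dpy-8 (1.41), bli-1 (1.34) and dpy-7 (1.13), with a list median of 1.11 against 0 over all genes. Of 12 precuticle genes 3 were higher, sym-1 (1.21), lpr-3 (1.17) and let-4 (0.80), as was qua-1 (0.88). None of the 8 genes on the protease list, 10 transcription factors, 3 dual oxidase genes or 9 trafficking partners was called by limma in that comparison. At high mercury and 4 h, where 13.8% of all genes were lower, 8 of 10 collagens were lower, with a median of -0.88, as were 5 of 12 precuticle genes, led by sym-1 (-1.75) and lpr-1 (-1.39), and 4 of 10 transcription factors and timers, with lin-42 at -0.62 and nhr-23 at -0.61. At high mercury and 8 h 17.6% of all genes were higher and 14.6% lower. Of the 8 genes on the protease list 3 were higher and 3 lower there, with the astacin nas-38 at 1.68 and nas-37 at -1.02. Of the 9 trafficking partners of lrp-1 2 were higher there, nekl-2 (0.68) and mlt-3 (0.66), where 17.6% of all genes were. At high cadmium and 4 h, where 4.57% of all genes were lower, 1 of 10 collagens was called, bli-1 (-1.67), with a list median of -1.11 against -0.12 over all genes.

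In whole worms fewer cells of a type and less RNA per cell cannot be told apart. In the controls from 4 h to 8 h 6 of 8 epidermis markers were lower, with a median of -1.17. Of all genes 15.7% were lower and 11.6% higher. The markers dpy-7, rol-6, sqt-3, elt-3, che-14 and ptr-4 are also on the moulting lists above, so this fall is not a separate measure of epidermis. Of the other tissues 1 of 6 intestine, 2 of 5 body wall muscle, 0 of 4 pharynx and 0 of 6 neuron markers were lower, while 3 of 6 germline markers were higher. At high mercury 13.8% of all genes were lower at 4 h and 14.6% at 8 h. Of the epidermis markers 1 of 8 was lower at 4 h and 1 at 8 h, dpy-7 at both times, near those shares. Their summed signals were 31600 to 47000 against 38300 to 59400 in the control at 4 h and 19100 to 32300 against 29800 to 37200 at 8 h. Intestine markers moved more: 4 of 6 were lower at 4 h and 5 of 6 at 8 h, and their summed signal at 8 h was 8830 to 10200 against 18300 to 20500 in the control. Body wall muscle markers were lower for 3 of 5 at both times. At low mercury and 4 h 2 of 6 intestine markers were lower, against 1.68% of all genes. The intestine sum was 11200 to 15600 against 19700 to 23900 in the control, with no overlap. At low mercury and 8 h the intestine sum was 18300 to 19000, within the range of the control, with 0 of 6 called. There 1 of 8 epidermis markers was higher, dpy-7, against 0.775% of all genes, with an epidermis sum of 23100 to 32600. The ratio of the 3′ to the 5′ actin control probe sets, a sign of RNA integrity, moved with the mercury dose: its mean log2 was 0.85, 0.99, 1.19 and 1.31 at 4 h and 1.01, 1.02, 1.34 and 1.53 at 8 h for control, low, mid and high dose. The same ratio for GAPDH lay between -0.05 and 0.22 in the mercury series at 4 h and 8 h. At high cadmium and 4 h 0 of 8 epidermis and 1 of 6 intestine markers were lower, against 4.57% of all genes. The intestine sum was 6080 to 17000 against 18100 to 25200 in the control. The body wall muscle sum was 5350 to 10800 against 12800 to 16400, with 2 of 5 markers lower, and the epidermis sum 14900 to 37600 against 41200 to 51100. None of these 3 sums overlapped between the groups. At high cadmium and 8 h the intestine sum was 9480 to 15000 against 17900 to 24500. At high cadmium and 4 h the mean actin value was 1.07 against 0.65 in the control. At high acrylamide and 4 h the intestine sum was 8560 to 11100 against 13800 to 23100 in the control. After 8 h it was 6350 to 7250 against 16200 to 19100. The body wall muscle sum was then 5320 to 7940 against 9270 to 15000, and the epidermis sum 9200 to 26300 against 26300 to 29800. Pharynx and neuron sums overlapped the control at 8 h. The mean actin value there was 1.31 against 0.97 in the control. The part of these shifts in the results was not tested.

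Across the 27 group means, which share controls and the time course, the profile of each gene was correlated with the mean of the other 9. Pearson's r was 0.96 to 0.98 for mlt-8, mlt-9, mlt-11, noah-1 and noah-2, 0.90 for mlt-10, 0.88 for fbn-1, 0.71 for lrp-1 and 0.69 for bli-5, and -0.60 for mlt-7. Among 13535 other genes the 5 with profiles most like the mean of the members were acn-1 (r = 0.986), K10D3.4 (0.986), T03G6.1 (0.985), the hedgehog-related wrt-2 (0.985) and the lipocalin gene lpr-5 (0.983). Within groups, where time and dose are fixed, replicate deviations of the 9 members other than mlt-7 had pairwise correlations from -0.36 to 0.92 with a median of 0.57 over 36 pairs of genes. These deviations pool all 80 arrays, among them the acrylamide arrays numbered 1, which deviated by -0.94 on average at 8 h. The part of those arrays in the correlations was not tested.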

How the data were processed

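Transcript levels in whole C. elegans were read on 80 single-colour expression arrays. The deposited values are intensity, MAS5 signals on a linear scale, per the submitters' processing notes, which give no version and no scaling target; no further step by the authors was recorded. The table holds 22625 probe sets, from which 77 control probe sets of the array were dropped. Here each array was scaled to a common median of 202.9, 51 (the 20th percentile) was added, and log2 taken. Probe sets above 131 (the 40th percentile) on at least 3 arrays of a series were tested: 16542 for acrylamide, 16225 for cadmium, 15886 for mercury and 17855 over all arrays. Each series was fitted by limma 3.58.1 (R 4.3.3) with a mean for each group and a mean-variance trend (residual degrees of freedom 18, 17 and 18); a fit of all 80 arrays (53) gave the control time courses and the contrasts between chemicals. Adjusted p values are Benjamini-Hochberg over all probe sets tested, and the percentages of all genes count 1 probe set per gene. The procedure was tested on simulated data.

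Groups and replicate numbers came from the sample titles. Same-numbered arrays were taken as paired where every pair's deviations from the group means correlated above 0.1. This held for mercury at 4 h at all doses and at the low dose at 8 h, for acrylamide at the mid dose at both times and the low dose at 8 h, for low cadmium at 4 h and for 4 h against 0 h in the cadmium and mercury controls. Symbols came from GEO's platform annotation, in which 20766 probe sets had 1 symbol, 887 several and 895 none; all 10 members matched RefSeq. All members are named; of each pathway list, up to 4 called genes of largest change, and the 5 genes of most similar profile. The members and lists were chosen with earlier results of these data known. Of the genes listed, dpy-10 and peel-1 had no probe set of their own. Alternatives covered scaling, pseudocount, filter, replicate block, the groups fitted and each replicate left out. The replicate block was 1 offset per replicate number over all times of a series. The number of arrays limits the precision. Sequences and coordinates were not used here.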

Additional observations from a re-analysis of the deposited data

Results flagged for a closer look

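For 5 genes the data gave a low-dose mercury effect at 8 h that differed from the effect at 4 h by the test of the difference itself (limma, n = 3 per group). The log2 difference was 1.05 for mlt-8 (adjusted p = 0.028), 1.34 for mlt-10 (0.012), 1.85 for mlt-11 (0.0012), 1.95 for noah-1 (0.0027) and 1.69 for noah-2 (0.0023). The call of mlt-8 was lost in 7 of 18 alternatives, each leaving out 1 array, and that of mlt-10 in 1. The contrast was added after the data were seen.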

How the results depend on the processing

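Of 230 member changes examined, 66 were called, and 44 of these kept their call under every alternative run. Among 3440 alternative values, 3124 kept direction and side of the threshold, 99 lost the call, 40 gained it and 177 changed sign without being called on either side. A called change reversed in 0. The 9 lower and 1 higher gene from 4 h to 8 h and the 8 lower from 0 h to 8 h were counted under every alternative, range included (10 to 10 and 8 to 8). Counts that moved by over 1.5 times were as follows. For the controls from 0 h to 4 h, 4 genes became 2 with the scaling as deposited and 2 with quantile normalization. For mid cadmium at 4 h, 1 became 0 with the deposited scaling, with quantile normalization and with only the groups compared. For high cadmium at 4 h, 3 became 1 with the deposited scaling, 5 with only the groups compared and 6 with the replicate block, which added mlt-7 (higher, adjusted p = 0.023), noah-1 (0.024) and noah-2 (0.049) to the same 3, although same-numbered arrays did not all deviate together there. For high cadmium at 8 h, 1 became 0 with the deposited scaling, quantile normalization, a pseudocount at the 40th percentile or no filter. For low mercury at 4 h, 0 became 2 with the replicate block and 1 with only the groups compared. For high acrylamide at 4 h, 0 became 1 with only the groups compared. Without the acrylamide arrays numbered 1, chosen after seeing the data, the counts for acrylamide were 1 at the high dose at 4 h, 3 at the mid dose at 8 h and 1 at the high dose at 8 h. The replicate block also gave 7 in place of 6 at mid mercury, 4 h, and 6 in place of 4 for the controls from 0 h to 4 h, and it changed no other count. With 1 replicate left out, the counts ran from 0 to 1 at high acrylamide, 8 h (1 without replicate 1 of the control), 0 to 2 at mid cadmium, 4 h (2 without replicate 2 of that dose, which leaves 1 array assumed to vary like the other groups), 1 to 3 at high cadmium, 4 h (1 without replicate 1 or 3 of either group), 0 to 1 at high cadmium, 8 h (1 only without replicate 2 of the control), 0 to 2 at low mercury, 4 h (2 without replicate 2 of the control, 1 without replicate 1 of that dose), 4 to 6 and 6 to 8 at mid and high mercury, 4 h, 0 to 3, 1 to 3 and 4 to 7 at low, mid and high mercury, 8 h, 4 to 5 for the low-dose difference between times, 7 to 9 for high against low mercury, 8 h, and 1 to 5 for the controls from 0 h to 4 h (1 without replicate 1 of the acrylamide control at 4 h, and 2 without replicate 3 of the acrylamide or 1 of the cadmium control at 0 h, or replicate 2 of the cadmium or mercury control at 4 h). The counts for the controls from 4 h to 8 h and from 0 h to 8 h stayed at 10 and 8, and all other counts stayed at 0. The cause of these moves was not tested. Dim genes such as mlt-7 and fbn-1 lie near the pseudocount, which limits their folds.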
